A study of Arabidopsis thaliana with 9 samples.

Results

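Root tips of wild-type Arabidopsis thaliana grown at low phosphate without iron were compared with wild-type tips grown at low phosphate with iron. The comparison covered every locus with at least 20 counts in those 2 libraries together, which was 20085 of the 33602 loci listed. At the edge of that filter, 61 loci had exactly 20 counts and were kept, and 65 had 19 and were not. Both groups were the Col-0 accession, taken as the 2 to 3 mm nearest the root apex 5 days after germination. They grew on agar (1%) with 0.1× modified MS salts and 1% sucrose at pH 5.7, and both media held 5 µM phosphate. The low-iron medium was made without the usual iron sulfate and contained 100 µM ferrozine, which binds residual iron. The series also held wild type, stop1 and almt1 at 1 mM phosphate, stop1 and almt1 at 5 µM phosphate, and both mutants at 5 µM phosphate with 1 mM L-malate. The mutants lack or are impaired in the transcription factor STOP1 and in its target ALMT1, a channel for malate; the labels name no alleles. For stop1 with malate, the sample's title and its listed treatment disagree on phosphate, and the listed treatment was followed. Each of the 9 groups was 1 library of 1 biological replicate, and how many plants it pooled is not given in the sources used here.

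Arabidopsis roots take up iron by acidifying the soil with proton pumps such as AHA2, reducing ferric iron with the reductase FRO2 and importing ferrous iron through IRT1. The transcription factor FIT, with partners of the bHLH38, bHLH39, bHLH100 and bHLH101 group, switches these genes on when iron is scarce, and phenolic coumarins exported by PDR9 help to mobilise iron. At low phosphate, iron gathers in the cell walls of the root tip, and the ferroxidase LPR1 and malate released through ALMT1 take part in the arrest of tip growth. The comparison therefore addresses which part of the transcriptome of a phosphate-starved tip differs when iron is withheld.

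Levels are given as counts per 1000000 scaled gene counts (CPM), which are not divided by gene length and are compared only for the same gene between libraries. A difference is the log2 ratio of the low-iron to the low-phosphate level, with a 95% interval that covers counting error only. With 1 library a side there is no replicate error and no p-value, so every difference below separates these 2 libraries and not the conditions in general. A locus was called higher or lower when it differed at least 2-fold and its interval excluded equality. Where a library had 0 counts, the ratio was taken against 3 counts in that library (0.0812 CPM in the low-iron and 0.145 CPM in the low-phosphate library). Such a ratio is a nominal value, and its interval reaches smaller differences. The counting did not use strand, and 6240 of the tested loci overlap another locus. Reads ambiguous between loci were left out of the counts. They made up 2.65% of recorded reads in the low-iron and 0.956% in the low-phosphate library. Overlapping loci may thus have lost reads unequally, which was not tested. Among the tested genes given a value below, an overlap holds for 4CL1, ABCG2, AHA7, APR1, ASN1, AT1G18910, AT1G28680, AT1G74770, AT2G31790, AT3G58550, AT4G01390, AT4G08780, AT4G16270, BCAT4, CASP1, CASP5, CESA7, CHS, COPT5, CSD1, EARLI1, ESB1, F6'H1, FAR1, FAR4, FER1, FER2, FER4, FRO3, GDH1, GL2, GSO1, GSTF12, HRE1, HSP101, ILR3, IMD1, IREG2, JAZ10, KCS2, LPR1, MBF1C, MYB10, NRAMP1, PER64, PGIP1, PLT3, RWP1, SOT18, STAR1, STOP1, TCH3, UBC21, UGT84A1, VND6, WRKY40, YSL2, ZIP1, bHLH101, bHLH115 and bHLH38. Because these are pieces of whole tissue, fewer cells of a type and less RNA per cell cannot be told apart.

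The low-iron library held 37189056 gene counts and the low-phosphate library 20619740, against 25677399 to 35960355 in the other 7. The low-phosphate library stood apart. Multiply aligned reads made up 44.9% of its recorded reads, against 4.19% to 14.3% in the other 8, and plastid and mitochondrial loci held 1.03% of its gene counts, against 0.0294% to 0.167%. The low-iron library and the 2 malate libraries shared a high share of reads ambiguous between loci (2.55% to 2.65%, against 0.956% to 1.69% in the other 6), so the set a library was made or sequenced with and its treatment cannot be told apart. The part of these differences in the results was not tested. For some genes the levels of the other 7 libraries are given too; for the rest, only the compared pair is printed. Markers of the root tip were present. In the low-iron library the root cap regulators SMB and BRN1 stood at 23.2 and 30.1 CPM. There the stem cell factor PLT1 and the ground tissue factor SCR stood at 15.2 and 62.7 CPM. The 5 root cap genes listed summed to 79.2 CPM in the low-phosphate and 156 CPM in the low-iron library. In the same order, 23 stem cell niche genes summed to 730 and 798 CPM and 6 photosynthesis genes of the shoot to 15.6 and 7.07 CPM. Of 22 niche genes tested 6 were lower, among them WOX5, as given below.

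Of the 20085 loci, 1440 (7.17%) were higher and 3344 (16.6%) lower at low iron. These shares are the background for the counts of list members below. The median log2 ratio over all of them was 0.02, and the middle 50% lay between -0.58 and 0.46. The lower side held the extremes: 579 loci were at least 16-fold lower and 18 at least 16-fold higher. Among loci with at least 5 CPM in the low-phosphate library, 98 had at most 3 counts in the low-iron library, whereas no locus at 5 CPM or more in the low-iron library had so few in the low-phosphate library. Over all loci the low-iron library was the lowest of the 9 for 17.2% and the highest for 13.0%, and the low-phosphate library was the highest for 18.0% and the lowest for 15.9%. Of the 3344 lower loci, 1799 had the low-iron library as the lowest of the 9 and 2002 the low-phosphate library as the highest, with 982 meeting both. Of the 1440 higher loci, 732 had the low-iron library as the highest and 798 the low-phosphate library as the lowest, with 411 meeting both. Both libraries thus contributed extreme levels to the difference, and these shares follow in part from how the loci were called.

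**Figure D1:**
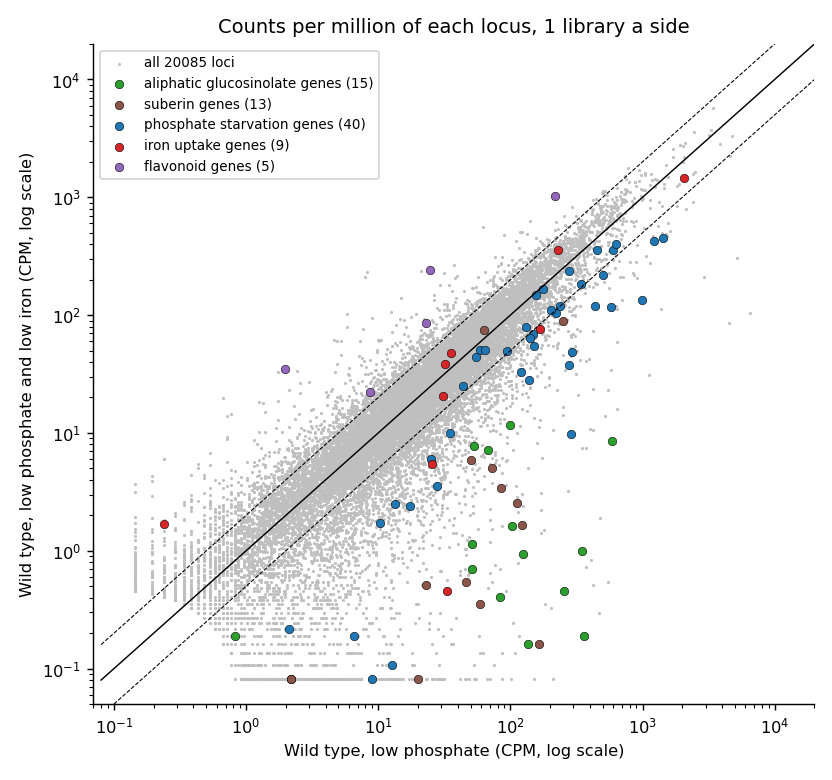
Level of each locus in the low-phosphate library (x axis, CPM, log scale) and in the low-iron library (y axis, CPM, log scale), with levels under 3 counts drawn at 3 counts. Grey points are the 20085 loci, coloured points the tested members of 5 gene lists, the solid line equality and the dashed lines a 2-fold difference; the aliphatic glucosinolate and most suberin genes lie far below the diagonal and the 5 flavonoid genes above it.

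The iron uptake genes, which are known to rise when iron is short, were not higher as a group at low iron. Among the iron storage genes given below, 3 of 7 tested were lower and 0 higher (16.6% and 7.17% over all loci). Whether the library's treatment was as labelled was not tested, and "low iron" in every ratio here means the library so labelled. Of the 11 iron uptake genes listed 9 were tested, of which 1 was higher and 3 were lower (7.17% and 16.6% over all loci). The median log2 ratio of the iron uptake list was -0.52. IRT1, the main ferrous iron importer, stood at 33.3 CPM in the low-phosphate library and 0.460 CPM in the low-iron library, a log2 ratio of -6.18 (-6.96 to -5.49). Its level at high phosphate was 11.1 CPM in wild type, and stop1 and almt1 ranged from 1.52 to 16.6 CPM. The low-iron library therefore had the lowest IRT1 level of the 9, from 17 counts. FRO2, the ferric reductase, stood at 25.6 and 5.42 CPM (log2 ratio -2.24, -2.49 to -2.01), the second of which lay within the 3.94 to 15.02 CPM of the 7 other libraries. NRAMP1, a manganese and iron importer, stood at 169 and 76.1 CPM (log2 ratio -1.15, -1.22 to -1.08); almost the same level as in the low-iron library was seen in stop1 with malate (80.8 CPM) and in almt1 at low phosphate (78.4 CPM). FRO4, a copper reductase, was the member called higher, at 0.241 and 1.68 CPM, which rests on 5 and 62 counts (log2 ratio 2.80, with a wide interval above 0). FIT stood at 30.9 and 20.4 CPM, IRT2 at 35.4 and 47.8 CPM, FRO3 at 32.2 and 38.8 CPM, AHA2 at 2073 and 1447 CPM and AHA7, another proton pump, at 231 and 356 CPM, and none of these reached 2-fold. Among the tested members, IRT2, AHA7 and FRO4 had their highest level of the 9 libraries at low iron. FRO1 and FRO5, with 0 and 4 counts in the pair, were not tested.

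The regulators of iron status were lower or near their low-phosphate levels. Of 18 listed genes 13 were tested, 0 were higher and 5 lower (7.17% and 16.6% over all loci). The list's median log2 ratio was -0.62. bHLH39, a FIT partner, stood at 5.01 CPM at low phosphate and 0.596 CPM at low iron (log2 ratio -3.07, -3.81 to -2.40), against 1.07 to 12.5 CPM in the other 7 libraries. bHLH38 stood at 3.13 and 0.162 CPM (log2 ratio -4.27, -5.77 to -3.07), and bHLH101 at 0.675 and 0.162 CPM (log2 ratio -2.05, -3.72 to -0.58). All 3 had their lowest level of the 9 libraries in the low-iron library, where they rest on 6 to 22 counts. bHLH104 and bHLH115, activators that act above that group, were at 100.4 and 42.1 CPM and at 138 and 62.8 CPM (log2 ratios -1.25 and -1.13). BTS, an E3 ligase that represses iron uptake, was at 78.5 and 104 CPM, the latter its highest level of the 9 libraries. The repressor PYE was at 16.8 and 10.9 CPM, and both genes differed less than 2-fold. AT1G74770 and AT1G18910, whose products carry the reference description of zinc ion binding proteins, hardly differed (log2 ratios -0.05 and -0.01). bHLH34, bHLH121, ILR3 and MYB10 had log2 ratios of 0.11, -0.35, -0.60 and -0.83, with fewer than 20 counts of MYB10 in each library. bHLH100, MYB72, AT1G47400, AT1G47395 and AT2G30766 had at most 12 counts in the pair and were not tested. The reference describes the products of the last 3 only as uncharacterised proteins.

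**Figure D2:**
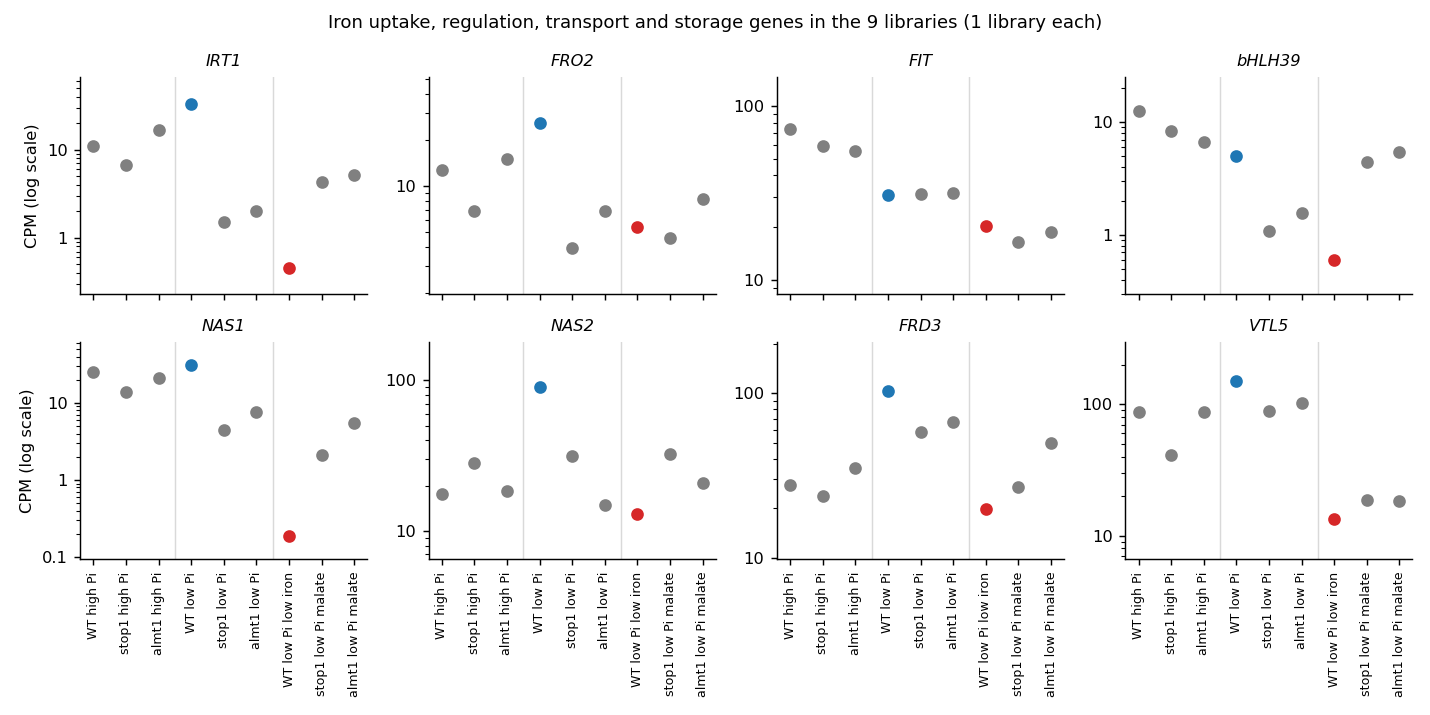
Levels of 8 iron genes (y axes, CPM, log scale) in the 9 libraries (x axis), 1 point for each library, with blue for wild type at low phosphate, red for wild type at low phosphate and low iron and grey for the rest. IRT1 was at 33.3 CPM in the blue and 0.460 CPM in the red library, and NAS1 at 31.0 and 0.190 CPM.

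Coumarin genes had a median log2 ratio of 0.24, and 1 of 9 tested was called, in the lower direction (16.6% lower over all loci). CYP82C4, which makes the coumarin sideretin, had 199 counts (9.59 CPM) at low phosphate and 0 at low iron, at least 118-fold lower. It was also at 0 in 2 of the other 7 libraries, and high-phosphate wild type had 7.10 CPM. F6'H1, the enzyme that opens the scopoletin route, stood at 277 and 188 CPM and F6'H2 at 13.6 and 27.0 CPM, the latter just short of 2-fold (log2 ratio 0.98, 0.79 to 1.18). The exporter PDR9 was at 493 and 581 CPM, its highest level of the 9. The phenylpropanoid ligases 4CL1 and 4CL2 had log2 ratios of 0.43 and 0.59, the methyltransferase CCoAOMT1 -0.03, the glucosidase BGLU42 0.36 and AT1G28680, an acyltransferase, -0.12. The oxygenase gene AT3G12900 had 0 counts in both libraries.

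Genes that move or chelate metals inside the plant were lower almost throughout. All 19 listed were tested, and 16 were lower and 0 higher (16.6% and 7.17% over all loci), with a median log2 ratio of -1.95. For 10 of the 19 the low-iron library was the lowest of the 9, beside 17.2% of all loci. NAS1, a nicotianamine synthase whose product carries iron and zinc, stood at 31.0 CPM at low phosphate and 0.190 CPM at low iron (log2 ratio -7.35, -8.67 to -6.30), with 2.12 to 25.5 CPM in the other 7. NAS2 was at 89.96 and 13.1 CPM (log2 ratio -2.79, -2.93 to -2.64). NAS3 was at 3.28 and 0.0542 CPM, and its level was 2.25 and 2.13 CPM in the mutants at low phosphate and 0.0265 to 0.0623 CPM in the 3 high-phosphate and 2 malate libraries. NAS4 was at 1.06 and 0.352 CPM, on 22 and 13 counts.

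FRD3, which loads citrate into the xylem for iron transport, stood at 103 and 19.7 CPM (log2 ratio -2.38, -2.51 to -2.26), and 23.6 to 66.5 CPM in the other 7. The vascular exporter IREG1 was at 2.94 and 0.352 CPM and the vacuolar IREG2 at 4.58 and 0.596 CPM (log2 ratios -3.06 and -2.94). The vacuolar zinc transporters MTP3 and ZIF1 had log2 ratios of -2.04 and -1.28, and the zinc pumps HMA2, HMA3 and HMA4 -1.95, -2.60 and -1.04. NRAMP3 and NRAMP4, which release iron from the vacuole, had log2 ratios of -1.16 and -1.57. AT3G58060, a cation efflux family gene, stood at 2.46 and 0.244 CPM, and YSL2, a nicotianamine-metal transporter, at 21.5 and 8.45 CPM. Not called were OPT3 (log2 ratio -0.79), YSL1 (-0.92) and YSL3 (-0.36). Zinc and copper uptake genes were closer to the background of 16.6% lower and 7.17% higher. Of 10 tested, 3 were lower (ZIP1, ZIP4 and ZIP9, log2 ratios -2.25, -1.07 and -1.18) and 0 higher. ZIP2, ZIP3, ZIP5, COPT1, COPT5, SPL7 and CCH had log2 ratios between -0.66 and 0.69, and ZIP8, MTPA1 and COPT2 were not tested.

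Iron stores showed 3 lower genes of 7 tested and 0 higher, beside 16.6% lower over all loci. FER1, the ferritin that accumulates with iron, stood at 296 CPM at low phosphate and 144 CPM at low iron (log2 ratio -1.04, -1.09 to -0.99). The low-iron level lay between those of the high-phosphate libraries (93.1 to 136 CPM) and those of the mutants at low phosphate (439 and 384 CPM), close to stop1 with malate (151 CPM). VTL1 and VTL5, which resemble the vacuolar iron transporter, were at 24.0 and 3.93 CPM and at 149.7 and 13.3 CPM (log2 ratios -2.61 and -3.49). FER3 was at 93.6 and 162 CPM, FER2 at 13.1 and 20.7 CPM, FER4 at 32.4 and 26.8 CPM and VTL2 at 9.84 and 5.33 CPM, none of them called. VIT1, NEET, AT3G43630 and AT3G43660 were below the filter. Among enzymes that remove superoxide and peroxide, 3 of 12 tested were lower and 0 higher, beside the same 16.6%. The iron superoxide dismutase FSD1 stood at 44.1 and 10.6 CPM, above the 3.50 to 10.14 CPM of the other 7 in both. The catalases CAT1 and CAT3 were at 34.9 and 8.69 CPM and at 84.1 and 12.1 CPM, and the copper and zinc dismutases CSD1 and CSD2 had log2 ratios of -0.88 and 0.06.

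The lowest median of any list was that of the aliphatic, methionine-derived branch of the glucosinolates, the sulfur-rich defence compounds of cabbage relatives. Of the 16 genes listed for that branch, 15 were tested and 15 were lower, with a median log2 ratio of -6.12, beside the 16.6% of all loci and the median of 0.02 given above. In 15 of the 15 the low-phosphate library was also the highest of the 9, beside 18.0% of all loci. In 14 the low-iron library was the lowest, beside 17.2% of all loci. BCAT4, which deaminates methionine in the first step, stood at 359 CPM at low phosphate and 0.190 CPM at low iron, 7439 and 7 counts (log2 ratio -10.89, -12.20 to -9.84). Wild type at high phosphate had 6.50 CPM of BCAT4, and the 6 mutant libraries 2.58 to 35.5 CPM. The chain-elongation synthases MAM1 and MAM3 were at 135 and 0.162 CPM and at 347 and 1.00 CPM (log2 ratios -9.70 and -8.44). The remaining elongation genes IPMI1, IPMI2 and IMD1 had log2 ratios of -5.99, -7.69 and -6.12, and BAT5, the plastid transporter of the intermediates, -5.50.

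Core synthesis followed the same direction: the P450 enzyme CYP83A1 stood at 254 and 0.460 CPM (log2 ratio -9.11, -9.89 to -8.43), CYP79F2 at 125 and 0.948 CPM, and CYP79F1, on 17 and 7 counts, at 0.820 and 0.190 CPM. The sulfotransferases SOT17 and SOT18 were at 68.1 and 7.20 CPM and at 98.7 and 11.7 CPM, and AT2G31790, a glycosyltransferase, at 51.3 and 0.704 CPM. The side-chain oxygenase FMOGSOX1 was at 2.17 and 0.0812 CPM, on 45 and 3 counts. MYB28, the activator of the branch, differed less than most of the enzyme genes, at 53.1 and 7.77 CPM (log2 ratio -2.77, -2.96 to -2.58), and its relative MYB29 had 0 counts in all 9 libraries. Of the indole glucosinolate and camalexin genes 8 were tested and 7 were lower, beside 16.6% of all loci. CYP71A12 and PAD3 of the camalexin route had log2 ratios of -6.02 and -5.22, and CYP79B2 and CYP79B3, which make the shared oxime, were at 195 and 29.5 CPM and at 30.8 and 4.87 CPM. The activator MYB51 and the P450 gene CYP81F2 had log2 ratios of -2.15 and -3.02. A second activator, MYB34, was at 82.4 and 71.0 CPM and was the member not called. CYP71A12 has a near-identical neighbour, CYP71A13, so the division of reads between them is uncertain.

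Sulfate and nitrate assimilation, which feed that chemistry, had 8 lower and 1 higher of 13 tested (16.6% and 7.17% over all loci). APR1, the sulfate-reducing enzyme, stood at 289 and 45.1 CPM (log2 ratio -2.68, -2.76 to -2.60), and the sulfur-deficiency genes LSU1 and LSU2 at 14.4 and 0.650 CPM and at 53.1 and 8.61 CPM. The nitrate reductases NIA1 and NIA2 had log2 ratios of -1.46 and -1.20, and the nitrate transporter NRT2.1 was the higher member, at 1.64 and 4.36 CPM.

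**Figure D3:**
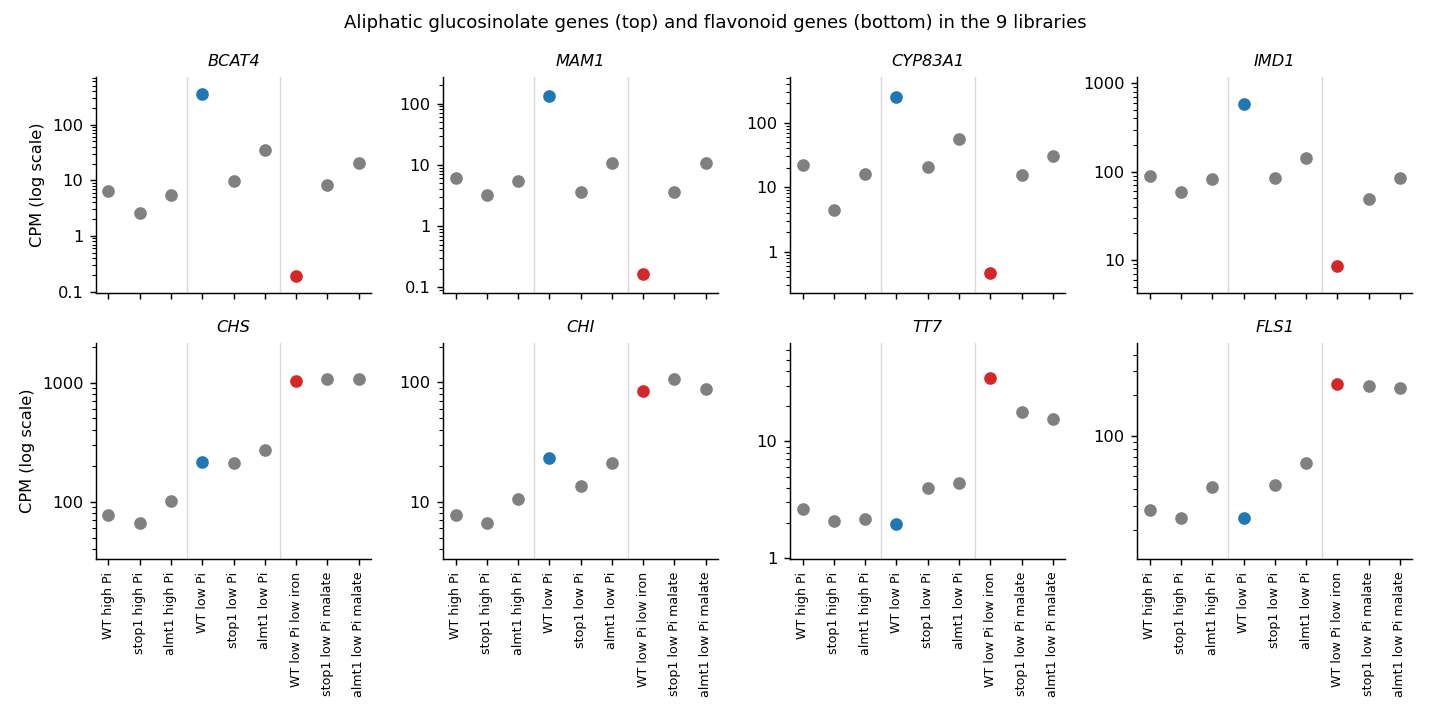
Levels of 4 aliphatic glucosinolate genes (top row) and 4 flavonoid genes (bottom row), in CPM on log scales, in the 9 libraries, with blue for wild type at low phosphate, red for wild type at low phosphate and low iron and grey for the rest. BCAT4 was at 359 CPM in the blue and 0.190 CPM in the red library, whereas CHS was at 217 and 1027 CPM and as high in the 2 malate libraries.

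Flavonoid genes went the other way. The 5 tested of 11 listed were all higher at low iron, with a median log2 ratio of 2.24, beside 7.17% of all loci. CHS, chalcone synthase, the entry enzyme, stood at 217 CPM at low phosphate and 1027 CPM at low iron (log2 ratio 2.24, 2.20 to 2.29). The 2 malate libraries were as high (1064 and 1071 CPM), the mutants at low phosphate were near wild type (211 and 269 CPM), and the high-phosphate libraries had 66.2 to 100.7 CPM. The low-iron and malate libraries are also those that shared the high share of ambiguous reads. Library set and treatment therefore cannot be told apart for the flavonoid genes. Chalcone isomerase CHI was at 23.2 and 85.4 CPM, and flavonol synthase FLS1 at 24.5 and 243 CPM (log2 ratio 3.31, 3.18 to 3.44), with 232 and 228 CPM in the malate libraries. TT7, the flavonoid 3'-hydroxylase, stood at 1.98 and 34.6 CPM (log2 ratio 4.13, 3.68 to 4.62), and its low-iron level was above the 18.0 and 15.66 CPM of the malate libraries and the 2.102 to 4.40 CPM of the others. MYB12, an activator of flavonol genes, was at 8.68 and 22.3 CPM, against 11.5 to 26.2 CPM in the other 7, so the low-phosphate library was the lowest of the 9. The genes of the later anthocyanin steps, DFR and LDOX, and the regulators MYB75, MYB11 and TT8 had at most 2 counts in the pair, as did F3H, and were not tested. Of the loci chosen by size alone, UGT84A1, a glycosyltransferase of phenylpropanoid acids, had the largest increase of all, from 0.675 to 19.96 CPM (log2 ratio 4.89, 4.13 to 5.76). GSTF12, a glutathione transferase that takes flavonoids to the vacuole, went from 0.241 to 6.01 CPM, on 5 and 222 counts.

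In the endodermis, the ring of cells that seals the inner root, the genes of its 2 barriers separated. CASP1, CASP2, CASP4 and CASP5, which build the Casparian strip, were higher at low iron, and each had its highest level of the 9 libraries there. CASP5 stood at 2.41 CPM at low phosphate and 33.3 CPM at low iron (log2 ratio 3.79, 3.38 to 4.23), with 4.79 to 23.8 CPM in the other 7. CASP4 was at 13.5 and 82.4 CPM, and CASP1 and CASP2 had log2 ratios of 1.19 and 1.51. In the low-phosphate library CASP4 and CASP5 were the lowest of the 9, whereas CASP1 and CASP2 were lower still in stop1 with malate (83.7 and 43.4 CPM). The receptor GSO1, which monitors the strip, was at 61.9 and 108 CPM, the regulator MYB36 at 39.8 and 37.9 CPM and the kinase gene AT1G61590 at 74.4 and 49.3 CPM, none of them called. ESB1, a dirigent-like protein of the strip, was called lower on 16 and 12 counts (log2 ratio -1.25, -2.46 to -0.08).

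Suberin, the waxy polymer laid over older endodermal cells, gave the opposite picture. Of its genes, 3 were in the endodermis list, and a wider list of 13 was drawn up after their values were seen, and is a description. Of those 13, 12 were lower and 0 higher (16.6% and 7.17% over all loci), with a median log2 ratio of -5.46. CYP86A1, the main fatty acid hydroxylase of root suberin, stood at 164 CPM at low phosphate and 0.162 CPM at low iron, 3392 and 6 counts (log2 ratio -9.98, -11.42 to -8.85). Its level was 75.4 to 199 CPM in the high-phosphate libraries and the mutants at low phosphate and 11.5 and 36.1 CPM in the 2 malate libraries. The acyltransferases GPAT5 and GPAT7 were at 46.1 and 0.542 CPM and at 23.1 and 0.514 CPM, and the fatty acid reductases FAR1, FAR4 and FAR5 had log2 ratios of -9.54, -7.39 and -5.46. The exporters ABCG6 and ABCG20 were at 123 and 1.65 CPM and at 72.5 and 5.06 CPM, and ABCG2 at 2.17 and 0.0542 CPM. The hydroxylase CYP86B1, the elongase KCS2 and the feruloyl transferase RWP1 had log2 ratios of -4.64, -3.10 and -1.49, and the elongase KCS20 was the member not called (0.25). In 10 of the 13 the low-iron library was the lowest of the 9, beside 17.2% of all loci. The malate libraries were the next lowest for CYP86A1, GPAT5, FAR4 and ABCG6.

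**Figure D4:**
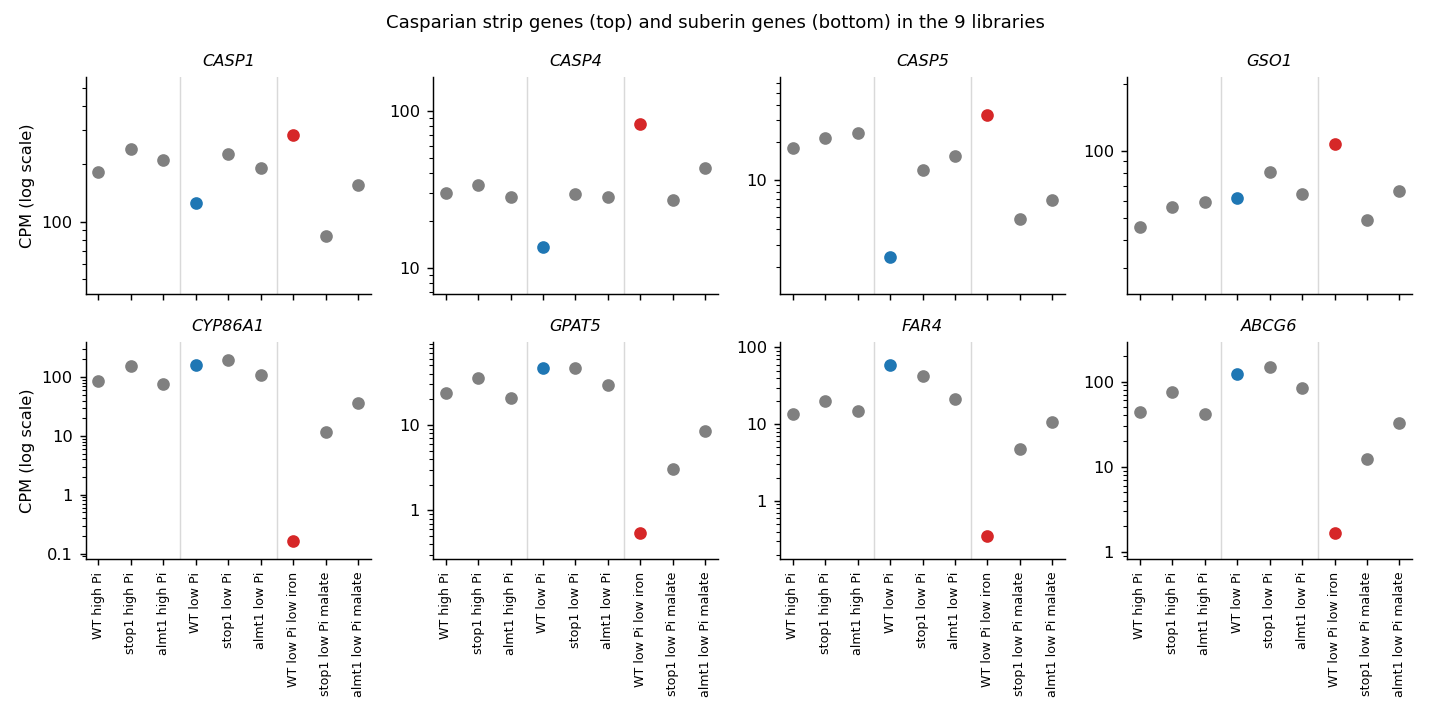
Levels of 4 Casparian strip genes (top row) and 4 suberin genes (bottom row), in CPM on log scales, in the 9 libraries, with blue for wild type at low phosphate, red for wild type at low phosphate and low iron and grey for the rest. CASP5 was at 2.41 CPM in the blue and 33.3 CPM in the red library, and CYP86A1 at 164 and 0.162 CPM.

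Class III peroxidases, which crosslink or loosen the wall with peroxide, split in both directions. Of 33 tested of 37 listed, 7 were higher and 15 lower (7.17% and 16.6% over all loci), with a median log2 ratio of 0.06. PRX52 stood at 48.5 CPM at low phosphate and 0.0271 CPM at low iron, on 1005 and 1 counts (log2 ratio -10.81, -16.11 to -8.32). Apart from almt1 with malate (6.20 CPM) and stop1 with malate (1.51 CPM), the other libraries held 0 to 0.657 CPM, so the low-phosphate library was the highest by a wide margin. AT4G36430 was at 407 and 0.839 CPM, with 31.2 and 53.1 CPM in the malate libraries, and high-phosphate wild type had 1.61 CPM. AT4G08780 had 1377 and 0 counts, 817-fold lower when taken against 3 counts, with an interval that ended at a log2 ratio of -9.37. PRX25, PRX53 and AT1G49570 were at 35.6 and 0.162 CPM, at 12.2 and 0.162 CPM and at 374 and 7.45 CPM. PRX33 and PRX34, sources of peroxide in defence, had log2 ratios of -4.80 and -2.55; they are near-identical copies, and the division of reads between them is uncertain. Among the higher members, AT3G01190 stood at 118 and 512 CPM (log2 ratio 2.12, 2.06 to 2.18), against 197 to 936 CPM in the other 7, so the low-phosphate library was the lowest of the 9. PER64, which lignifies the Casparian strip, was at 93.4 and 198 CPM and PRX72, a lignin peroxidase, at 143 and 332 CPM, both at their highest of the 9. PER4, AT4G11290, AT4G16270 and PRX2 were also higher, with log2 ratios of 1.46, 1.67, 1.72 and 1.79.

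Genes of wall extension were likewise divided, with 7 higher and 7 lower of 27 tested (7.17% and 16.6% over all loci). XTH17, a xyloglucan-modifying enzyme of the elongating root, stood at 21.2 CPM at low phosphate and 235 CPM at low iron (log2 ratio 3.47, 3.33 to 3.61). It was at 205 to 275 CPM in the high-phosphate libraries and in the mutants at low phosphate, and at 59.4 and 86.2 CPM with malate, so the low-iron level lay inside the first range and the low-phosphate level below both. The pectin methylesterase PME2 followed that order at 26.6 and 135 CPM. XTH21 was at 5.98 and 31.2 CPM, and its low-iron level lay between the malate libraries (9.43 and 9.96 CPM) and the rest (37.3 to 65.5 CPM). The expansin-like gene EXLA2, the expansin EXPA17 and XTH5 and XTH13 were higher as well (log2 ratios 2.57, 1.496, 1.67 and 1.12). The lower members were EXLB1 (86.5 and 4.55 CPM), the touch-induced XTH22 (31.0 and 5.31 CPM), EXLA3, EXPA4, XTH20, EXPA1 and EXPA10 (log2 ratios -2.52, -2.09, -1.69, -1.61 and -1.54).

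Among the loci with the largest increases over all loci, several had a low-iron level above those of all 3 high-phosphate libraries. AT5G46890, a lipid-transfer-like protein gene, stood at 8.29 CPM at low phosphate and 231 CPM at low iron (log2 ratio 4.80, 4.58 to 5.03), against 136 to 169 CPM in the 3 high-phosphate libraries and the mutants at low phosphate and 26.6 and 48.8 CPM with malate. Its neighbour AT5G46900, a close copy, was at 7.91 and 209 CPM. BR6OX1, which makes active brassinosteroid, was at 0.771 and 14.4 CPM, ACS5, an ethylene synthesis enzyme, at 1.25 and 18.4 CPM, and the arabinogalactan protein gene AGP30 at 5.79 and 79.5 CPM, the last of these below its high-phosphate levels (103 to 131 CPM). CER4, a fatty acyl reductase, was at 4.63 and 61.1 CPM and ATCSLB05, a cellulose synthase-like gene, at 5.83 and 102 CPM. In each of these 7 genes the low-phosphate library was the lowest of the 9.

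At the other end, AT3G58550, also annotated as a lipid-transfer protein gene, had the largest decrease, from 4329 counts (209 CPM) to 1 (log2 ratio -12.91, -18.22 to -10.43), with 0.583 to 27.2 CPM in the other 7 libraries. AT2G18370 of the same family went from 152 to 0.0542 CPM and EARLI1, a cell wall protein of this family, from 41.7 to 0.0271 CPM. The P450 gene CYP78A8 went from 54.1 to 0.0271 CPM. GRP9, a glycine-rich wall protein gene, stood at 472 CPM at low phosphate, 0.298 CPM at low iron and 539 CPM in high-phosphate wild type, and the malate libraries had 23.3 and 27.9 CPM. AT5G01870, AT4G01390 and ARPN, a plantacyanin gene, had 0 counts at low iron after 2092, 1799 and 1462 at low phosphate. Taken against 3 counts they were 1242-fold, 1068-fold and 868-fold lower. Their intervals ended at log2 ratios of -9.98, -9.76 and -9.46.

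The systemic phosphate starvation genes are induced through the factor PHR1 when the plant runs short of phosphate. Of 40 tested, 26 were lower and 0 higher (16.6% and 7.17% over all loci). Their median log2 ratio was -1.48, and all 40 ratios were below 0. For 37 of the 40 the low-phosphate library was the highest of the 9, beside 18.0% of all loci. For 5 the low-iron library was the lowest, beside 17.2% of all loci. The summed level of the 42 listed genes was 10601 CPM at low phosphate and 4326 CPM at low iron, against 1148 to 1214 CPM at high phosphate, 6761 and 5873 CPM in stop1 and almt1 at low phosphate, and 2293 and 3853 CPM with malate. The low-iron sum thus lay between those of the high- and low-phosphate libraries and above both malate libraries. IPS1, the RNA that traps miR399, stood at 220.1 and 104 CPM, against 0.419 CPM at high phosphate (log2 ratio -1.08, -1.14 to -1.02).

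Within that list the differences were unequal. The sensor SPX3 was at 287 and 9.83 CPM (log2 ratio -4.87, -5.02 to -4.71), whereas SPX1 was at 1212 and 427 CPM and SPX2 at 131 and 80.1 CPM. Among the phosphate importers, PHT1;5 was at 12.6 and 0.108 CPM, PHT1;8 at 17.5 and 2.41 CPM and PHT1;9 at 25.1 and 5.98 CPM, while PHT1;4 was at 601 and 355 CPM. PHT1;2 hardly differed, at 157 and 148 CPM against 0.175 CPM at high phosphate; it and PHT1;1 are near-identical copies. The phosphatases PAP14 and PAP23 had log2 ratios of -6.78 and -5.11, on 3 and 7 counts at low iron, and PAP12 one of -0.22. The lipid-remodelling phosphatases PECP1 and PS2 were at 986 and 135 CPM and at 582 and 118 CPM, the phospholipase NPC4 at 277 and 37.5 CPM, and the sulfolipid synthase SQD2, which was not called, at 635 and 403 CPM. The precursor locus MIR399C was at 2.65 and 0.162 CPM, and MIR827 at 3.09 and 2.22 CPM. Of 10 such precursor loci 4 were tested and 3, MIR399B, MIR399C and MIR399D, were lower, beside 16.6% of all loci.

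Of the genes of the local, iron-dependent response of the tip, 4 of 12 tested were lower and 0 higher. Over all loci these shares were 16.6% and 7.17%. LPR1, the ferroxidase, was at 9.50 and 7.55 CPM and was not called, and its relative LPR2 was at 36.1 and 15.73 CPM (log2 ratio -1.20, -1.36 to -1.04). ALMT1 stood at 133 CPM at low phosphate and 46.5 CPM at low iron (log2 ratio -1.51, -1.60 to -1.43), against 57.2 CPM at high phosphate; in almt1 it was at 41.7 CPM at high phosphate, 96.8 CPM at low phosphate and 15.2 CPM with malate, and in stop1 at most 0.0692 CPM. The peptide gene CLE14 and the transporter gene STAR1 were lower (log2 ratios -1.37 and -1.40). PDR2, an ATPase that restrains LPR1, stood at 105 and 165 CPM, its highest of the 9, and the callose synthases CALS3 and GSL05 at 100.7 and 143 CPM and at 60.5 and 80.5 CPM, none of them called. Of 13 genes tied to STOP1 and malate, 7 were lower and 0 higher, beside the same background. The glutamate dehydrogenases GDH1 and GDH2 were at 184 and 61.2 CPM and at 1550.2 and 601 CPM, the pectinase inhibitors PGIP1 and PGIP2 had log2 ratios of -5.79 and -3.59, the potassium importer HAK5 -3.27 and AT1G51340, a MATE efflux family gene, -1.76, and STOP1 itself was at 148 and 113 CPM.

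**Figure D5:**
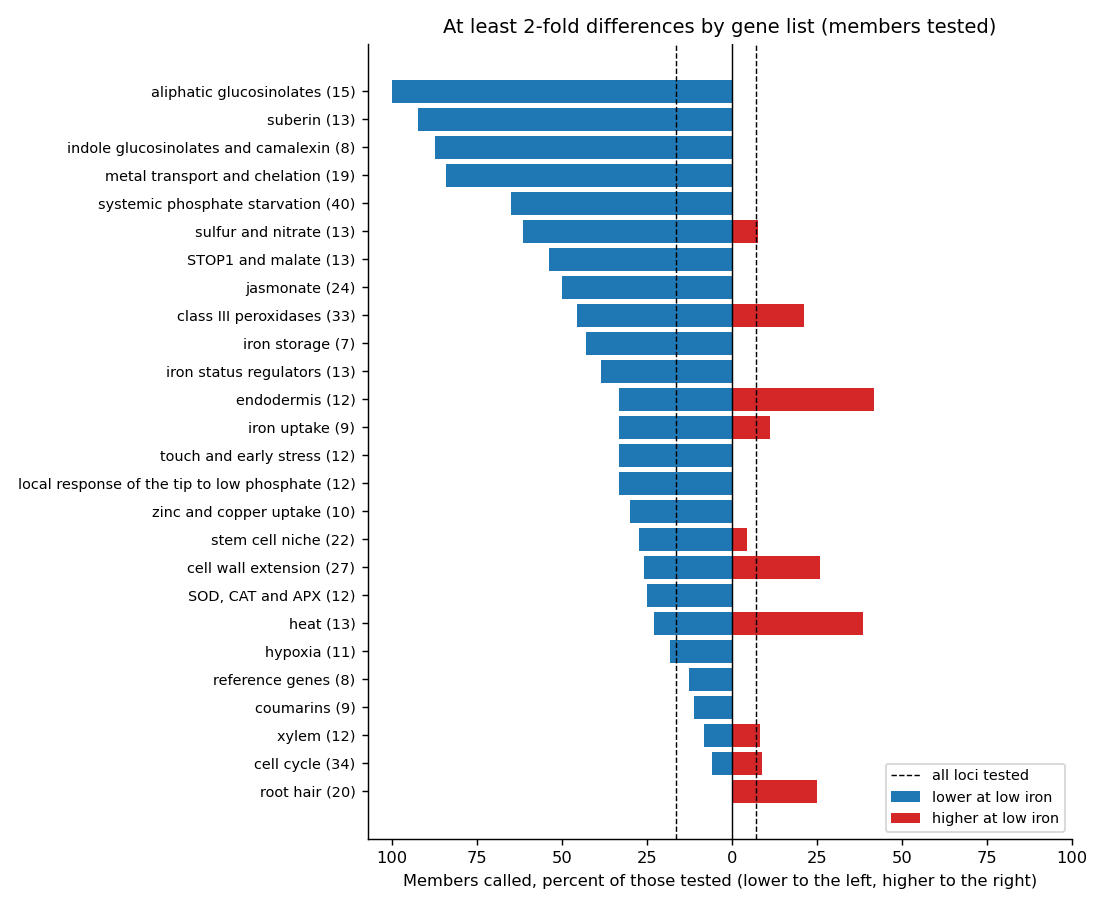
Share of the tested members of each gene list called lower (blue, to the left) or higher (red, to the right) at low iron, in percent, with the number tested in brackets; lists with fewer than 7 tested members are left out. Dashed lines mark the shares over all 20085 loci, 16.6% lower and 7.17% higher; all 15 aliphatic glucosinolate genes were lower, and the root hair list had 5 higher and 0 lower of 20.

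Of 34 cell cycle genes tested 3 were higher, a share near the 7.17% of all loci, and 2 were lower. Ratios above 0 were found for 27 of the 34, against 51.1% of all loci, and the median log2 ratio was 0.51. The low-phosphate library was the lowest of the 9 for 16 of the 34, beside 15.9% of all loci. The low-iron library was the highest for 1, beside 13.0% of all loci. CDC20.1, an activator of the anaphase-promoting complex, stood at 21.6 and 54.8 CPM (log2 ratio 1.34, 1.19 to 1.49), and at 61.6 and 50.4 CPM in the malate libraries. The S-phase cyclin CYCA3;1 was at 4.58 and 10.07 CPM, and the licensing factor CDT1A, at 25.2 and 50.5 CPM, sat on the threshold and fell short of it under every other scaling (log2 ratios 0.98 to 0.99). The inhibitors KRP1 and SMR7 were lower (log2 ratios -1.42 and -1.22).

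The stem cell niche list had 6 lower and 1 higher of 22 tested (16.6% and 7.17% over all loci), with a median log2 ratio of 0.18. WOX5, the marker of the quiescent centre, stood at 6.99 CPM at low phosphate and 0.433 CPM at low iron (log2 ratio -4.01, -4.86 to -3.26), against 0.969 to 2.301 CPM in the other 7. PLT3 and BBM, which keep the stem cells dividing, were at 88.4 and 32.9 CPM and at 13.1 and 5.74 CPM, near their high-phosphate levels of 25.2 and 5.56 CPM, while PLT1 and PLT2 hardly differed (log2 ratios 0.26 and -0.05). The auxin exporter PIN4 was the higher member, at 12.8 and 54.3 CPM, and RGF1, AGL42 and SCL3 were the other lower ones (log2 ratios -1.90, -1.09 and -1.22).

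Among tissue markers, the list of root hair fate and growth genes had 5 higher and 0 lower of 20 (7.17% and 16.6% over all loci). For 11 of the 20 the low-iron library was the highest of the 9, beside 13.0% of all loci. RSL1, COBL9, CSLD3 and PRP1 had log2 ratios of 2.18, 1.19, 1.02 and 1.01, and the value of PRP1 was 0.99 to 1.00 under other scalings. The other higher member, GL2, is a regulator of non-hair cell fate and had a log2 ratio of 1.66. Of 5 root cap genes CEL5, a cellulase, was higher (26.1 and 86.9 CPM), and the summed level of the 5 was 79.2 CPM at low phosphate and 156 CPM at low iron. Xylem genes had 1 higher (CESA7, 1.06) and 1 lower (VND6, -2.01) of 12, beside 7.17% and 16.6% of all loci. The xylem median log2 ratio was 0.61. For 6 of the 12 the low-phosphate library was the lowest of the 9, and the low-iron library was the highest for 0. Over all loci these shares were 15.9% and 13.0%. In the phloem, the sucrose carriers SUC2 and SWEET12 were at 45.8 and 8.42 CPM and at 1.302 and 0.0542 CPM, while the identity factor APL was at 9.93 and 7.09 CPM. Photosynthesis genes of the shoot summed to 15.6 CPM at low phosphate and 7.07 CPM at low iron. The part of these tissue markers in the other results was not tested.

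Genes that rise when sugar runs short were all lower, 4 of 4 listed, beside 16.6% of all loci. DRM2, a dormancy gene, stood at 48.7 and 0.650 CPM (log2 ratio -6.23, -6.88 to -5.65), far under the 820.4 CPM of wild type at high phosphate, and ASN1, the asparagine synthetase of darkness, at 113 and 2.14 CPM. DRM1 and SEN1 had log2 ratios of -2.45 and -3.53. Jasmonate genes had 12 lower and 0 higher of 24 (16.6% and 7.17% over all loci). The repressor genes JAZ5, JAZ6 and JAZ10 were at 1.93 and 0.108 CPM, at 16.1 and 2.46 CPM and at 14.3 and 2.68 CPM. The synthesis gene AOC1 was at 5.59 and 0.677 CPM, and the storage protein gene VSP1 at 4.58 and 0.0542 CPM. Of 12 touch and early stress genes 4 were lower, beside 16.6% of all loci. The calmodulin-like TCH3 was at 398 and 10.9 CPM (log2 ratio -5.20, -5.35 to -5.05) and ERF6 at 37.6 and 9.64 CPM. The other lower members, ERF115 and WRKY40, had log2 ratios of -6.39 and -1.19. Hypoxia genes had 2 lower (SUS1 and HRE1, log2 ratios -2.22 and -1.99) and 0 higher of 11, which is near the 16.6% lower of all loci.

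Heat response genes had 5 higher and 3 lower of 13 tested (7.17% and 16.6% over all loci). HSFA2, the heat factor that sustains the response, stood at 1.74 CPM at low phosphate and 18.7 CPM at low iron (log2 ratio 3.43, 2.95 to 3.96), and at 10.4 and 8.45 CPM with malate. The chaperones HSP90.1, HSP101 and HSP70 were at 15.6 and 91.4 CPM, at 11.6 and 42.7 CPM and at 41.6 and 90.3 CPM, and the coactivator MBF1C at 19.7 and 44.9 CPM. All 5 had their highest level of the 9 at low iron, while the small heat shock protein HSP18.2, the HSP20-like gene AT5G37670 and BIP3, a chaperone of the endoplasmic reticulum, were lower (log2 ratios -1.26, -1.51 and -3.42) on 35 or fewer counts at low iron. Of 8 reference genes 1 was called: UBQ10, polyubiquitin, stood at 2116 and 793 CPM, with 660.3 and 938 CPM in the malate libraries and 1683 to 2062 CPM in the high-phosphate and mutant low-phosphate libraries. ACT2 was at 939 and 1702 CPM, and PP2AA3 and UBC21 had log2 ratios of 0.11 and 0.10.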

How the data were processed

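The deposited files hold whole-number counts of reads per locus, 1 file for each of the 9 libraries. Per the labels' protocols, RNA was extracted from root tips with TRIzol and libraries were made with a TruSeq kit; the submitters' processing notes name TopHat2, HTSeq and TAIR10, with no versions of the tools. Lines for unassigned reads (no feature, ambiguous, multiply aligned) were left out of library sizes. Counts were scaled with TMM over the 9 libraries (edgeR 4.0.16), and loci with at least 20 counts in the compared pair were kept. Each log2 ratio has an exact conditional binomial 95% interval, which covers counting error only. A call needed a 2-fold difference and an interval that excluded equality. With 1 library a side there was no test between conditions. The procedure was tested on simulated data.

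The members and gene lists were chosen with earlier results of these data known; the suberin list and the product families were added after values were seen. Named genes are all members of the metal lists, up to 6 called members of largest size in other lists, the 15 highest and 15 lowest called nuclear loci with at least 5 CPM, and members named as examples after their values were seen. The reference annotation is a later release of the build (TAIR10.1) and gave only names and overlaps, for 32835 loci, so no coordinates are printed and a planned description of promoter motifs was not run. Alternatives covered scaling, filters, thresholds and fits with edgeR 4.0.16 and DESeq2 1.42.0. Not every member of the lists is reported here.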

Additional observations from a re-analysis of the deposited data

How the results depend on the processing

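The split of 1440 loci higher and 3344 lower was 1375 and 3400 with total counts, 1389 and 3391 with DESeq2 size factors, and 1364 and 3407 with TMM over the 2 libraries alone. At a 1.5-fold threshold 3698 loci were higher and 4831 lower, and at 4-fold 257 were higher and 1626 lower; the majority direction turned in 2 gene lists at 1.5-fold and in 1 at 4-fold. PRP1 and CDT1A dropped just under 2-fold with each of these 3 scalings, and no other gene named by rule crossed the threshold under them. A fit over all 9 libraries, in which stop1 and almt1 stand in for replicates and which has 2 residual degrees of freedom, called 2773 loci higher and 3815 lower with edgeR, of which 1135 and 2834 were also called in the pair; DESeq2 called 1855 and 3113, of which 927 and 2538 were also called in the pair. Of 220 list genes called in the pair, 35 were not called by edgeR, 33 not by DESeq2 and 21 by neither at an adjusted p under 0.05, among them bHLH101, NAS4, IPS1, PHT1;8, NPC4, PRX2, SMR7, RGF1, ESB1, VND6, HSP18.2, CYP79F1, LSU2, NRT2.1, NIA1, NIA2, MIR399B and RWP1. That fit assumes that the mutants vary as replicates of wild type would. Leaving out organelle loci left 1440 and 3273, and leaving out overlapping loci 1108 and 2469. No paired analysis was possible because each group had 1 library, and for the same reason no replicate could be left out. Depth limits loci with few counts: 13517 loci were not tested, of which 9469 had 0 counts in both libraries.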

Other observations

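The families below were picked by product description after their values had been seen, so their counts describe these 2 libraries only; the background is 7.17% of all tested loci higher and 16.6% lower. Proteins with a cysteine- and histidine-rich C1 domain, a zinc-binding fold that is expanded in plants, had 43 higher and 11 lower of 110 tested. For 60 of the 110 the low-iron library was the highest of the 9, beside 13.0% of all loci. AT3G11385 stood at 1.35 CPM at low phosphate and 6.12 CPM at low iron, and AT2G02610 at 2.75 and 10.6 CPM, while AT2G44370 went the other way, at 16.3 and 4.52 CPM. Tubulins, the units of microtubules, had 6 higher and 1 lower of 23, with TUB1 at 76.6 and 313 CPM and TUA3 at 167 and 425 CPM. Ribosomal proteins stayed mostly uncalled, with 9 higher and 7 lower of 317 and a median log2 ratio of 0.39.

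WRKY transcription factors, many of which act in defence, had 30 lower and 1 higher of 55. WRKY28 stood at 9.50 and 0.0812 CPM, WRKY56 at 5.98 and 0.135 CPM and WRKY48 at 17.8 and 0.839 CPM. The VQ motif proteins, some of which bind WRKY factors, had 13 lower and 1 higher of 22, with AT4G39720 at 9.59 and 0.650 CPM. Of 38 transporters of the nodulin MtN21 family, which includes amino acid exporters, 20 were lower and 3 higher, with UMAMIT29 at 24.8 and 0.298 CPM. Cytochrome P450 enzymes had 61 lower and 10 higher of 149, GDSL lipases 18 and 7 of 43, and glycine-rich proteins 18 and 3 of 41. Lipid-transfer proteins were split, with 13 higher and 19 lower of 48. The family of the Casparian strip membrane proteins was split too, with 8 higher and 13 lower of 35, among which AT5G44550 was at 116 and 0.190 CPM.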
